A study of Mus musculus with 12 samples.

Results

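The genes described here encode the nuclear-encoded proteins of the mitochondrial respiratory chain and ATP synthase in mouse spleen. They were chosen by name: every probe set whose only platform symbol begins with Nduf, Sdha, Sdhb, Sdhc, Sdhd, Uqcr, Cox4, Cox5, Cox6, Cox7, Cox8 or Atp5, with the brightest probe set kept for each gene. This gave 87 of the 12393 genes measured. Complex I had 38 of them, complex II 7, complex III 8, complex IV 17 and complex V, the ATP synthase, 17. Not all of these genes encode subunits: 78 do, while 8 encode assembly factors that share the name prefix (Ndufaf1, Ndufaf3, Ndufaf4, Ndufaf5, Ndufaf7, Sdhaf1, Sdhaf2 and Sdhaf4), and Cox7a2l encodes a protein that links complexes III and IV into a supercomplex. Another 8 probe sets carry a fitting symbol together with that of a second gene and were left out.

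Spleen RNA from 12 mice was measured on Affymetrix MOE430A 2.0 arrays, with 1 mouse per array and 3 mice in each of 4 groups. The groups were Dusp1 wild-type (DUSP1+/+) controls without treatment, Dusp1 wild-type mice 6 h after intraperitoneal E. coli lipopolysaccharide (LPS, 10 µg per g of body weight), and untreated and LPS-treated mice that carry the label Dusp1 knockout (DUSP1-/-). Strain, age, the allele and its reach are not given in the labels; controls are described only as untreated, not as injected with vehicle. The study asked how Dusp1, a phosphatase that switches off MAP kinases, controls the response to LPS, the cell wall lipid that sets off endotoxin shock.

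The respiratory chain passes electrons from NADH (complex I) and succinate (complex II) through coenzyme Q to complex III, cytochrome c and complex IV, and the proton gradient it builds drives ATP synthesis by complex V. Most subunits are encoded in the nucleus and imported, and dedicated assembly factors insert cofactors and join the modules without staying in the finished enzyme. In macrophages exposed to LPS, energy production is known to shift from respiration toward glycolysis, and succinate oxidation by complex II is known to take part in inflammatory signalling. The nuclear respiratory factor NRF1 and the ETS factor GABP are textbook activators of respiratory chain promoters.

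The promoters of the genes with the largest rises (Sdhaf1 and Ndufaf4) and the largest falls (Sdhaf4 and Ndufaf3) among those that passed the test in the averaged LPS response are shown because the results below turn on them. They come from RefSeq on GRCm38.p6, cover 250 bases before the start site and 30 after it, and read 5′ to 3′ along the gene's own strand. Capitals mark matches to the 5 motifs searched on both strands: NRF1 (GCGCATGC or GCATGCGC), ETS (CCGGAAG), YY1 (AAGATGGCG), the E-box (CACGTG) and NF-kB. The windows lie at chr7:30322346-30322625 on the minus strand (Sdhaf1), chr4:24897833-24898112 on the plus strand (Ndufaf4), chr1:24005611-24005890 on the minus strand (Sdhaf4) and chr9:108567407-108567686 on the minus strand (Ndufaf3).
Sdhaf1: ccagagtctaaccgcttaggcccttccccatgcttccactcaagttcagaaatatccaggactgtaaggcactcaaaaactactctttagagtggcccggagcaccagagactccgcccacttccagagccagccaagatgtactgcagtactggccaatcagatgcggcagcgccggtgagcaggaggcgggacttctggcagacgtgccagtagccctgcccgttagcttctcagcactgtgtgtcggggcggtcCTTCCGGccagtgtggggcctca
Ndufaf4: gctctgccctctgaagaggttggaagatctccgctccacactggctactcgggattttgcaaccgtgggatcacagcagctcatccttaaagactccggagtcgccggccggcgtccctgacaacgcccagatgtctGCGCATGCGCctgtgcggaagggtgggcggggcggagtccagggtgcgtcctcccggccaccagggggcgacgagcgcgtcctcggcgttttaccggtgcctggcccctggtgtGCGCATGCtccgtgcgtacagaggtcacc
Sdhaf4: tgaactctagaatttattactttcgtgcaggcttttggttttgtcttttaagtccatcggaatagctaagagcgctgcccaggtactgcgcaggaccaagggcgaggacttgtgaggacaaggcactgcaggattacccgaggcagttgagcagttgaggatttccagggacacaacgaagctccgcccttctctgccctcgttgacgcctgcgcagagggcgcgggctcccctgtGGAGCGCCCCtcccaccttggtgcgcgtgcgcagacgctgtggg
Ndufaf3: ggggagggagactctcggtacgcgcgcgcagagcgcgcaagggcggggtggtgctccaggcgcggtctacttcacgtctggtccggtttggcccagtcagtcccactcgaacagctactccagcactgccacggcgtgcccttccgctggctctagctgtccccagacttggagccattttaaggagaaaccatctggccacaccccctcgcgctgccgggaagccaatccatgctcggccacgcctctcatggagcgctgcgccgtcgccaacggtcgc
The Sdhaf1 window held 1 ETS match, 7 bases after the start site, and the Ndufaf4 window held 3 NRF1 matches, of which those at -113 and -111 overlap and the other begins 1 base after the start site. The Sdhaf4 window held 1 NF-kB match, and none of the 5 motifs matched in the Ndufaf3 window. Windows of 300 bases, reaching 50 bases past the start, were found for 73 of the 87 genes. NRF1 matched in 11 of these (15.1%), against 4.56% of 9882 genes on the array with a window and 2.8% of all 27025 windows. ETS matched in 19 (26%), against 15% and 9.12%. YY1 matched in 5 (6.85%), against 2.61% and 1.49%. The E-box (6 windows, 8.22%, against 9.33% and 7.24%) and NF-kB (8 windows, 11%, against 9.82% and 8.18%) were found at shares nearer those of other genes. These are letter matches and say nothing of binding.

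Several arrays carried signals that bear on the values below. The Dusp1 probe set was not lower in arrays labelled knockout: it read 677, 1528 and 1443 in knockout controls against 479, 1354 and 627 in the wild-type controls, and 4963, 2948 and 4996 against 2248, 2142 and 2116 after LPS, where every knockout-labelled array was the higher. The labels do not say which stretch of Dusp1 was changed or whether the probes lie in it, so this probe set checks nothing, and "knockout" below means the label. Wild-type controls 2 and 3 had the low Xist signal (35 and 47) of male mice, while the other 10 arrays read 1101 or more. The mean log2 level of 16 pancreas acinar markers was 12.61, 11.19 and 8.37 in wild-type control 1 and knockout controls 1 and 3, and 4.14 to 5.14 elsewhere. The mean of 18 red cell precursor markers, the globin gene Hba-a1 being under 20 on all arrays, was 10.34 in knockout control 1 and 9.21 in wild-type control 2, and 5.48 to 7.59 on the rest. Liver markers also varied, with a mean over 12 genes from 4.29 to 9.80 across arrays, and so did 7 lung markers, from 4.44 to 7.46. After LPS, 4 of 10 B cell markers, 4 of 9 T cell markers and 8 of 13 macrophage markers fell in the averaged response, and 1 macrophage marker rose. Of all genes 14.3% fell and 8.52% rose. The median differences of these 3 lists were -0.85, -0.70 and -0.74. Those of 20 proliferation markers (2 called lower) and 18 red cell precursor markers (0 called) were -0.92 and -0.76. In whole spleen, fewer cells of a type and less RNA per cell cannot be told apart, and the part of these shifts in the results was not tested.

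By the brightest probe sets, the averaged LPS differences of the subunits lay between -0.92 and 0.85 on the log2 scale. Of the 8 assembly factors, Sdhaf1 (2.18) and Ndufaf4 (1.18) lay above that range. Sdhaf4 (-1.15) and Ndufaf3 (-0.97) lay a little below it, and the rest within it. Averaged over both genotypes, 14 of the 87 genes passed the test (limma, Benjamini-Hochberg adjusted p under 0.05), 4 higher and 10 lower, against 22.9% of all genes. By kind, 7 of the 78 subunits were called, 2 higher and 5 lower, and by these probe sets none changed 2-fold. Second probe sets of Sdha and Atp5h, genes not counted here, also passed and are given with their complexes. Of the 8 assembly factors 6 were called: Sdhaf1 and Ndufaf4 rose, and Sdhaf4, Ndufaf3, Ndufaf7 and Sdhaf2 fell. The median log2 difference of the 87 genes was -0.18, against -0.04 over all genes. For 69 of them (79.3%) the 95% interval of the averaged difference lay within 2-fold in either direction, against 63.3% of all genes, and 3 (3.45%) changed 2-fold or more, against 14.6%. Scaling the arrays to a common median moved the median of all probe sets up by 0.17. The split of 4 higher and 10 lower calls became 6 higher and 3 lower. The genes' median lay 0.15 below that of all probe sets in both fits. This scaling shifts every probe set of an array alike, so it cannot change that gap and does not test it. With quantile normalization the split was 3 higher and 15 lower, and with cyclic loess 4 higher and 9 lower. The gap was then -0.21 and -0.19. The count was 5 without wild-type LPS 3, 7 without knockout LPS 1, and 8 when array 2 of either wild-type group was left out. Of all probe sets 14.2%, 14.5%, and 16.4% (control 2) or 15.7% (LPS 2) were then called, against 19.8% with all arrays. Without the 2 arrays high in red cell precursor transcripts the count was 7, with 18.4% of all probe sets called.

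**Figure D1:**
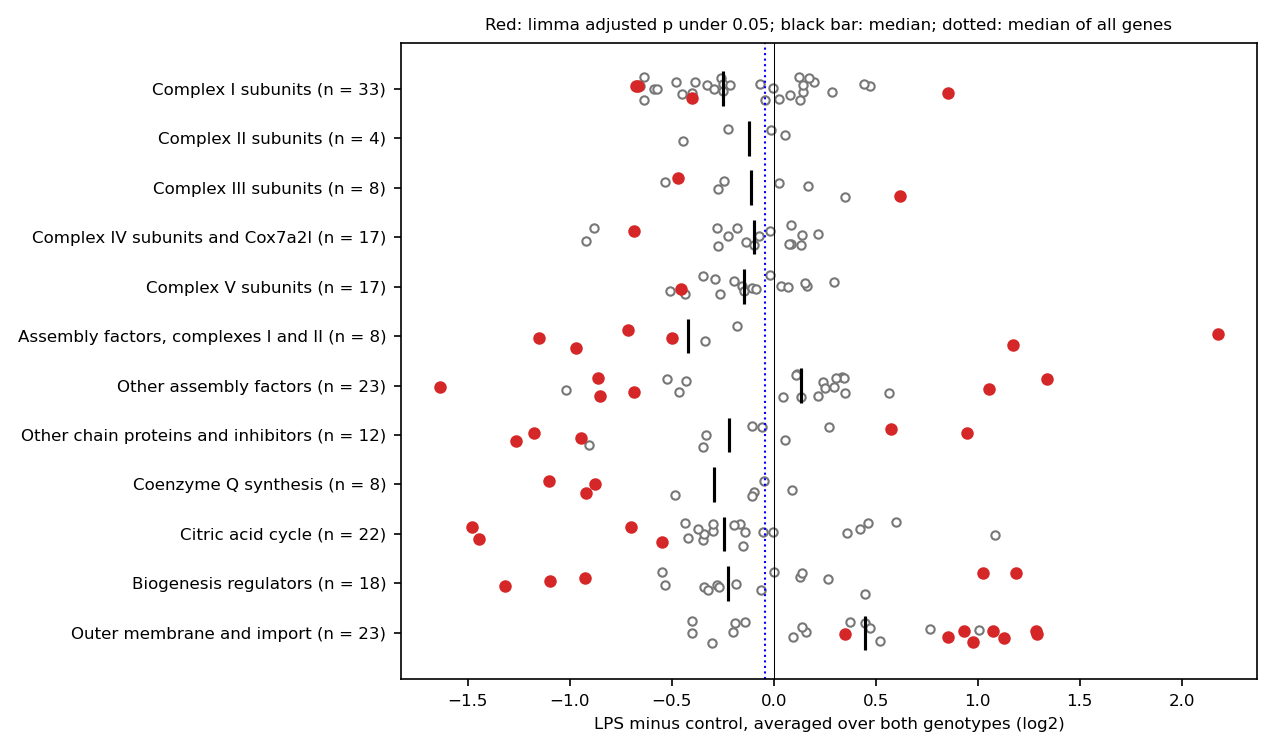
Averaged LPS difference (log2, horizontal axis) of every gene of each complex, of the assembly factors chosen by name and of 6 other mitochondrial gene lists. Red points passed the limma test, black bars are medians and the dotted line is the median of all genes (-0.04). The subunits lie between -0.92 and 0.85, and Sdhaf1 stands at 2.18.

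Sdhaf1 supports the insertion of iron-sulfur clusters into the complex II subunit Sdhb. Its intensity was 148, 139 and 192 in the wild-type controls and 526, 925 and 768 after LPS. In knockout mice it was 145, 82 and 242 in controls and 676, 816 and 475 after LPS. Every LPS array was above every control array. The rise was 2.18 ± 0.26 on the log2 scale (limma standard error, adjusted p = 0.000278), or 4.53-fold, and was 4.56-fold in wild-type and 4.5-fold in knockout mice. It passed the test in both genotypes under all 25 alternative settings, with adjusted p up to 0.0403 in wild-type and 0.0218 in knockout mice. The 95% interval of the difference between the 2 genotypes' responses ran from -1.18 to 1.14, wide enough to hold a 2-fold difference either way.

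Ndufaf4 takes part in building the complex I arm that reduces coenzyme Q. It read 254, 242 and 239 in the wild-type controls and 446, 659 and 675 after LPS. In knockout mice it read 258, 348 and 273 in controls and 773, 506 and 616 after LPS. LPS and control arrays did not overlap in either genotype. The averaged rise was 1.18 ± 0.15 (limma adjusted p = 0.000439), 2.26-fold, and the calls held without any 1 array in wild-type, knockout and averaged responses. A second, dimmer probe set of the gene (mean intensity 59.1) did not rise, with an averaged difference of -0.27 (adjusted p = 0.747). The knockout call was lost without the 3 arrays high in pancreas transcripts (adjusted p = 0.123).

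Other assembly factors of the same 2 complexes fell. Sdhaf4 binds flavin-loaded Sdha and helps join it to Sdhb. It read 333, 207 and 138 in the wild-type controls, 155, 92 and 80 after LPS, 338, 173 and 250 in knockout controls, and 72, 118 and 119 after LPS. The highest wild-type LPS array lay above the lowest wild-type control, while the knockout groups did not overlap. Its averaged fall was -1.15 ± 0.27 (limma adjusted p = 0.0125). The call held without any 1 array and was lost without the 3 arrays high in pancreas transcripts (adjusted p = 0.119).

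Ndufaf3 works with Ndufaf4 in early complex I assembly. Its intensity was 168, 182 and 263 in the wild-type controls and 141, 162 and 115 after LPS. It was 253, 210 and 288 in knockout controls and 59, 171 and 83 after LPS. The 2 groups of each genotype did not overlap, and the averaged fall was -0.97 ± 0.24 (limma adjusted p = 0.0179). In knockout mice alone it was -1.40 ± 0.35 (adjusted p = 0.024) and in wild-type -0.54 ± 0.35 (adjusted p = 0.482). The averaged call was lost without wild-type LPS 3 (adjusted p = 0.0512), the 3 arrays high in pancreas transcripts (0.108) or the 2 high in red cell precursor transcripts (0.0501). The knockout call was lost without knockout control 3, LPS 1 or LPS 3 (up to 0.0948) and without the 3 arrays high in pancreas transcripts (0.206).

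Sdhaf2, which helps attach flavin to Sdha, read 402, 551 and 527 in the wild-type controls, 583, 392 and 449 after LPS, 586, 481 and 439 in knockout controls, and 311, 203 and 279 after LPS. The 3 knockout LPS arrays were the lowest of all 12. Its fall in knockout mice was -0.94 ± 0.23 (limma adjusted p = 0.0209), lost without knockout control 1, LPS 2 or LPS 3 (up to 0.0675). The averaged fall of -0.50 ± 0.16 (adjusted p = 0.0494) held when array 1 of either wild-type group was left out and was lost without any other 1 array. Both calls were lost without the 3 arrays high in pancreas transcripts, the 2 high in red cell precursor transcripts or both LPS 2 arrays. Adjusted p then reached 0.0973 in knockout mice and 0.209 averaged. A second, dimmer probe set of Sdhaf2 was not called, with -0.69 in knockout mice (limma adjusted p = 0.334) and -0.54 averaged (0.232). Ndufaf7, a methyltransferase that modifies complex I, read 82, 84 and 93, then 67, 65 and 71 after LPS in wild-type mice, and 81, 89 and 90, then 63, 22 and 50 after LPS in knockout mice. No LPS array reached a control of its genotype. Its falls of -1.08 ± 0.31 in knockout mice (limma adjusted p = 0.045) and -0.71 ± 0.22 averaged (0.0427) were lost without each of 10 and 9 of the 12 arrays, the averaged call holding only without a knockout LPS array and the knockout call only without knockout LPS 1 or 2. Both were also lost under all 3 array scalings, a floor of 20 and array weights. They held under 5 and 8 of 25 alternatives.

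Ndufaf1, a chaperone of the complex I membrane arm, and Ndufaf5, which modifies the core subunit Ndufs7, were not called in any contrast. Ndufaf1 read 95, 133 and 137, then 153, 128 and 127 after LPS in wild-type mice, and 160, 155 and 126, then 101, 92 and 110 after LPS in knockout mice. Ndufaf5 read 42, 68 and 64, then 66, 65 and 53 in wild-type mice, and 51, 39 and 82, then 34, 28 and 34 in knockout mice. For both genes the 3 knockout LPS arrays lay below all 3 knockout controls. Their knockout differences were -0.54 ± 0.19 (limma adjusted p = 0.0893) and -0.78 ± 0.28 (0.0975).

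**Figure D2:**
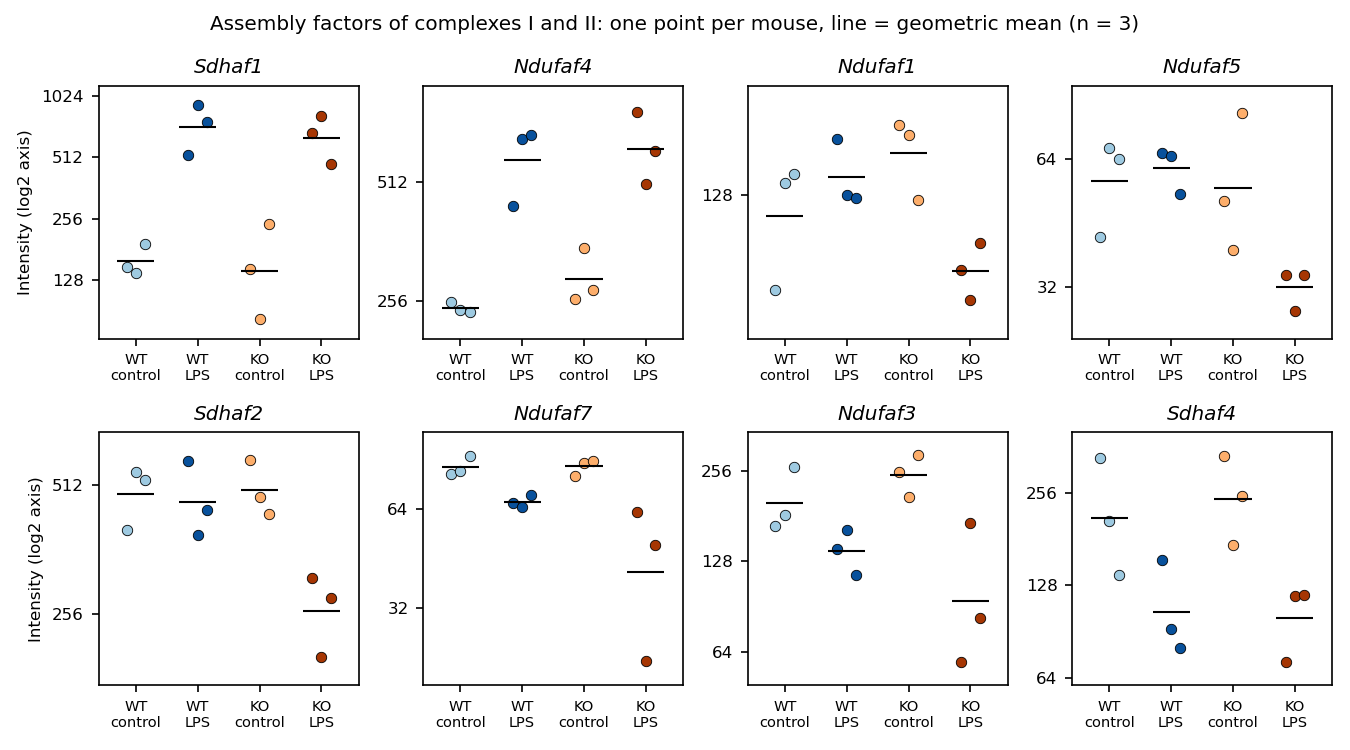
Intensity (log2-scaled vertical axis, a separate range in each panel) of the 8 assembly factors on each array, 1 point per mouse with the geometric mean of 3 mice as a line. Sdhaf1 and Ndufaf4 are above all controls in every LPS mouse, and Sdhaf2 is lowest in the 3 knockout LPS mice (311, 203 and 279).

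Complex I has 33 subunits here, 6 of the catalytic core and 27 accessory. In the averaged response 4 accessory subunits were called and no core subunit was, against 22.9% of all genes. The median of the 33 was -0.25, against -0.04 over all genes. Ndufb1, a small subunit of the membrane arm, rose: it read 124, 116 and 168 in the wild-type controls, 191, 269 and 233 after LPS, 132, 134 and 161 in knockout controls, and 228, 418 and 210 after LPS. Both LPS groups lay wholly above their controls, and the averaged rise was 0.85 ± 0.19 (limma adjusted p = 0.00927). It held without any 1 array and missed the threshold without the 3 arrays high in pancreas transcripts (0.059). The knockout rise of 0.94 ± 0.27 (adjusted p = 0.0435) held only without wild-type control 3, wild-type LPS 1 or knockout LPS 3.

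Ndufb3, another membrane arm subunit, fell. It read 633, 595 and 512 in the wild-type controls, 430, 438 and 382 after LPS, 647, 812 and 641 in knockout controls, and 302, 498 and 380 after LPS. No LPS array reached any control, and the averaged fall of -0.66 ± 0.14 (limma adjusted p = 0.00727) passed under all 25 alternatives. Its knockout fall of -0.85 ± 0.20 (0.0183) was lost without knockout control 2, LPS 1 or LPS 3 (up to 0.0824).

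Ndufa6, an accessory subunit on the matrix arm, read 891, 1054 and 1233, then 590, 665 and 529 after LPS in wild-type mice, and 992, 734 and 1150, then 478, 1079 and 547 in knockout mice. Knockout LPS 2 lay among the controls and the other 5 LPS arrays below them all. The averaged fall was -0.67 ± 0.21 (limma adjusted p = 0.0441). Ndufa8, on the membrane arm, fell by 0.40 on the log2 scale (standard error 0.12, limma adjusted p = 0.0357). It ranged from 668 to 867 in the 6 controls and from 484 to 682 after LPS, so the ranges overlapped slightly. The Ndufa6 call held only without wild-type control 1, knockout control 2 or knockout LPS 2, and that of Ndufa8 only without these or knockout control 1.

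Among the core subunits, Ndufs3, part of the arm that leads electrons to coenzyme Q, rose in wild-type mice from 765, 810 and 756 to 1026, 1220 and 1184, a difference of 0.55 ± 0.14 (limma adjusted p = 0.0449). It read 923, 846 and 974 in knockout controls and 981, 828 and 971 after LPS, which overlap. Ndufs7, which carries the last iron-sulfur cluster before coenzyme Q, read 983, 1303 and 1364 in knockout controls and 475, 837 and 467 after LPS, with no overlap. Its knockout fall was -1.08 ± 0.28 (limma adjusted p = 0.0293), and a second probe set gave -0.97 (0.0325). In wild-type mice Ndufs7 read 1198, 816 and 916, then 692, 1152 and 987, and the groups overlapped. The Ndufs3 call was lost without each of 8 arrays and held only without wild-type LPS 1 or knockout controls 1 or 2 or LPS 2. That of Ndufs7 was lost without knockout control 2 or 3 or LPS 1 or 3 (up to 0.121). Ndufa9, an accessory subunit of the same arm, read 713, 756 and 653 in knockout controls and 514, 519 and 469 after LPS (-0.50 ± 0.14, limma adjusted p = 0.0447), a call that held only without wild-type control 1. The core subunits Ndufv1, which binds NADH, and Ndufs1 had averaged differences of -0.40 ± 0.13 (adjusted p = 0.0553) and -0.66 ± 0.31 (0.187).

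By their brightest probe sets the 4 subunits of complex II did not pass in any contrast, but a second probe set of Sdha did. Averaged differences were 0.05 ± 0.17 for the iron-sulfur subunit Sdhb, -0.02 ± 0.17 and -0.22 ± 0.23 for the membrane anchors Sdhd and Sdhc, and -0.45 ± 0.18 for the flavoprotein Sdha. Sdhb read 835, 1243 and 1565 in the wild-type controls, 1198, 1647 and 1519 after LPS, 1286, 1527 and 1697 in knockout controls, and 1210, 1560 and 1199 after LPS, so all 4 groups overlapped. Sdha read 1145, 1163 and 752, then 962, 788 and 542 in wild-type mice, and 1126, 906 and 828, then 608, 722 and 735 in knockout mice. The knockout LPS arrays of Sdha lay below their controls, and the wild-type groups overlapped. The second Sdha probe set, with a mean intensity of 409.8 against 833.3, gave -1.51 in knockout mice (limma adjusted p = 0.0203) and -1.26 averaged (0.00547), so the 2 probe sets disagree on the size of the fall and on the call. For the brightest probe sets the 95% intervals of all 4 averaged differences lay within 2-fold.

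Complex III had 1 rise and 1 fall among 8 subunits in the averaged response, against 8.52% of all genes higher and 14.3% lower. Uqcrq, a small subunit next to cytochrome b, read 911, 856 and 1048 in the wild-type controls, 1184, 2162 and 2095 after LPS, 1050, 993 and 1219 in knockout controls, and 1374, 1816 and 1010 after LPS. Only the wild-type groups were apart. The averaged rise was 0.62 ± 0.19 (limma adjusted p = 0.0429), held only without wild-type LPS 1 or knockout LPS 3. Uqcrh, the hinge protein that helps cytochrome c1 pass on electrons, read 2076, 2334 and 1914, then 1680, 1364 and 1121 in wild-type mice, and 2542, 2387 and 2137, then 1728, 1959 and 1946 in knockout mice. No LPS array reached a control of its genotype, and the averaged fall was -0.47 ± 0.12 (limma adjusted p = 0.0217). It was lost without wild-type control 2, wild-type LPS 3 or knockout LPS 1 (up to 0.0608). Uqcr11 had the largest difference of the uncalled subunits, -0.53 ± 0.26 (adjusted p = 0.198), and the Rieske protein Uqcrfs1 0.35 ± 0.14 (0.118).

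In complex IV none of the 10 subunits made in most tissues was called, and their median averaged difference was -0.16. Cox4i1, the main form of subunit 4, read between 3237 and 4357 on all 12 arrays (averaged difference -0.14 ± 0.11). Cox6a1, Cox6b1 and Cox8a, also the common forms of their subunits, had averaged differences of -0.23 ± 0.15, -0.28 ± 0.16 and -0.18 ± 0.18. Ndufa4, first taken for a complex I subunit and now placed in complex IV, gave -0.27 ± 0.15. Cox7a2 read 929 in knockout control 2 and between 2573 and 4120 on the other 11 arrays. Cox7c, whose probe set was dim (20 to 150), had the widest error of this set, -0.88 ± 0.38 (limma adjusted p = 0.142).

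Cox7a2l was the one called gene of complex IV. It read 2210, 2025 and 2418 in the wild-type controls and 1254, 1092 and 1034 after LPS, without overlap. In knockout mice it read 1292, 1690 and 2884 in controls and 1293, 1547 and 1396 after LPS, and the groups overlapped. The wild-type fall was -0.98 ± 0.25 (limma adjusted p = 0.0453) and the averaged fall -0.68 ± 0.18 (0.0212). Another 2 probe sets of the gene gave averaged differences of -0.87 (adjusted p = 0.0543) and -0.79 (0.0182). The averaged call was lost without wild-type LPS 3 or knockout LPS 1 (up to 0.0565), and the wild-type call held only without knockout control 1 or 3.

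None of the 6 tissue-restricted forms of complex IV subunits was called, and 3 of them were under 30 on all arrays. Cox4i2 read 15 to 23, Cox7a1, a heart and muscle form also marking brown fat, 13 to 18, and Cox8b 17 to 27 over the 12 arrays, while 30.84% of all values in the table were under 20. Cox8c, the testis form of subunit 8, read 40 to 79. Cox6a2, the muscle form, read 102, 89 and 199 in the knockout controls, each above the 62, 41 and 71 of the wild-type ones. It was the only gene of the 87 with an unadjusted p under 0.05 between control groups (1.11 ± 0.34, limma adjusted p = 1). Of 16 striated muscle markers 0 were called between control groups, their median difference was 0.23, and 4 (Myh4, Tnnc2, Myl1 and Ckmt2) were under 20 on every array. Their mean log2 level was 4.16, 3.98 and 4.25 in the wild-type and 4.26, 4.64 and 4.28 in the knockout controls; their part in the Cox6a2 difference was not tested. Cox6b2, the testis form of subunit 6b, read 519 in knockout control 1 and 191 in wild-type control 2, and 34 to 110 on the other 10. Those 2 arrays were the highest of the 12 in mean level of red cell precursor, proliferation and neutrophil markers alike. The part of these signals was not tested.

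In complex V all 17 averaged differences had 95% intervals within 2-fold, as did 25 of 33 subunits of complex I, and their median was -0.15. In the F1 motor, Atp5b and Atp5a1, its catalytic and structural pair, had averaged differences of 0.16 ± 0.15 and 0.03 ± 0.13. Atp5c1, the central stalk that turns within them, read 2025, 2756 and 2989, then 2116, 2757 and 2318 in wild-type mice, and 2590, 3478 and 3152, then 1765, 1583 and 2059 in knockout mice. The knockout groups did not overlap, and the difference there was -0.77 ± 0.20 (limma adjusted p = 0.03), lost without knockout control 2 or 3 or LPS 1 or 2 (up to 0.0994).

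Among the membrane and stalk subunits, Atp5j, coupling factor 6 of the outer stalk, read 1304, 1345 and 1157, then 1133, 1238 and 942 in wild-type mice. It read 1379, 2010 and 1287, then 835, 1062 and 941 in knockout mice, where the groups were apart. Its differences of -0.70 ± 0.20 in knockout mice (limma adjusted p = 0.043) and -0.45 ± 0.14 averaged (0.0449) were lost without each of 10 and 9 arrays. The averaged call held only without knockout control 1, control 3 or LPS 2, and the knockout call only without knockout control 1 or 3. A second probe set of Atp5h, a subunit of the outer stalk, passed in the averaged response (-0.45, limma adjusted p = 0.0415), while its brightest one gave -0.19 (0.642). The largest uncalled differences by the brightest probe sets were 0.29 ± 0.19 for Atp5g1, a gene of the rotating c ring, and -0.51 ± 0.20 for Atp5pb, the stalk subunit b.

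Within each genotype, 4 of the 87 genes passed in wild-type mice, against 8.09% of all genes (3 higher, against 3.93%, and 1 lower, against 4.16%): Sdhaf1, Ndufaf4 and Ndufs3 rose and Cox7a2l fell. In knockout mice 11 passed, against 15.2% of all genes (3 higher, against 5.54%, and 8 lower, against 9.71%): Sdhaf1, Ndufaf4 and Ndufb1 rose, and Ndufaf3, Ndufs7, Ndufaf7, Sdhaf2, Ndufb3, Atp5c1, Atp5j and Ndufa9 fell. An unadjusted p under 0.05 was reached by 16.1% of the 87 genes in wild-type mice, against 21.4% of all genes, and by 21.8% in knockout mice, against 28.2%. Median differences were -0.06 in wild-type and -0.27 in knockout mice, where all genes had -0.03 and -0.06. The 2 responses, which rest on different mice, had the same sign in 60 of 87 genes and a correlation of 0.73 over the 87 genes, which share arrays and are not independent. The wild-type count was 2 without any 1 of wild-type controls 1 to 3, wild-type LPS 2 or 3, or knockout LPS 1 or 3. The knockout count was 4 without knockout LPS 1 or 3, with 6.56% and 7.57% of all probe sets called, against 12.7% with all arrays. It was 6 without knockout control 3 (9.65%). It was 7 without wild-type control 2, wild-type LPS 2 or 3, or knockout control 2 (10.6% to 11.4%). It was 6 without the arrays high in pancreas or in red cell precursor transcripts. With arrays scaled to a common median, the splits were 2 higher and 0 lower in wild-type and 3 higher and 0 lower in knockout mice, in place of 3 and 1, and 3 and 8. With quantile normalization they were 3 and 2, and 3 and 9. With cyclic loess they were 3 and 1, and 3 and 7.

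**Figure D3:**
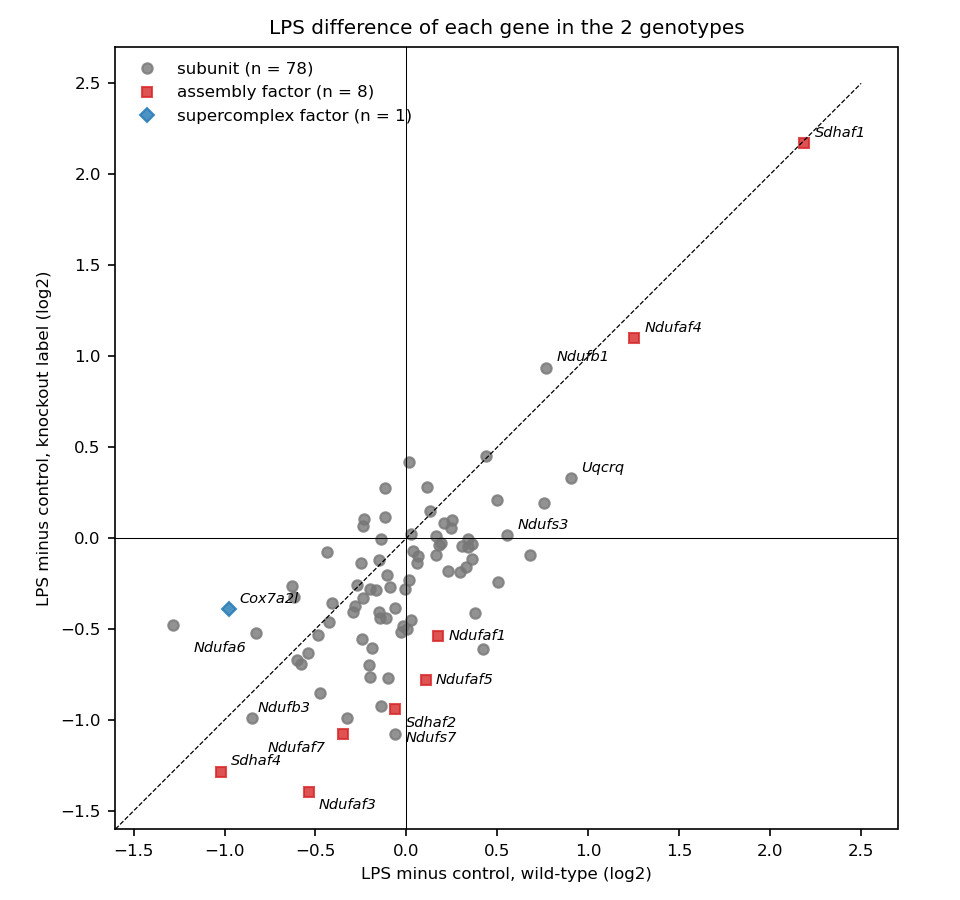
LPS difference (log2) in wild-type mice (horizontal axis) against that in mice labelled knockout (vertical axis) for the 87 genes, with the line of equal response dashed. Sdhaf1 and Ndufaf4 lie near the line at the upper right, and 67 of the 87 genes lie below it.

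No gene of the 87 passed a test between genotypes, so the larger count in knockout mice is not shown to be a different response. In controls 0 were called, against 0.0% of all genes, and 1 had an unadjusted p under 0.05 (1.15%, against 1.42%). The control groups did not overlap for 8 genes, all higher in knockout mice, against 1.53% of all genes higher and 0.952% lower. After LPS 0 were called, against 0.363% of all genes, and 6 had an unadjusted p under 0.05 (6.90%, against 10.2% of all genes). The LPS groups did not overlap for 3 genes higher in knockout mice, against 8.73% of all genes, and 7 lower, against 9.6%. For the interaction, the knockout response minus the wild-type response, 0 were called, against 0.0% of all genes, and 8 had an unadjusted p under 0.05 (9.20%, against 6.46%). The response was lower in knockout mice for 67 of the 87 genes (77.01%), against 56.14% of all genes, with a median of -0.22 against -0.05. The same number, 67, was higher in knockout than in the wild-type controls (77.01%, against 62.45% of all genes), with a median of 0.14 against 0.07. The control arrays enter both of these contrasts, so they are not separate observations.

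The interaction was below 0 for all 8 assembly factors (56.14% of all genes), with a median of -0.72, and none passed the test. Its sign changed under 11 of 25 alternatives for Sdhaf1, 2 for Sdhaf4 and 1 for Ndufaf4. The smallest adjusted p of any of the 87 genes between genotypes was that of Sdhaf2 after LPS, -0.85 ± 0.23 (limma adjusted p = 0.201), where every knockout array (311, 203 and 279) lay below every wild-type array (583, 392 and 449). For Ndufaf5 the difference after LPS was -0.94 ± 0.28 (limma adjusted p = 0.257) and no overlap. The interaction was largest among core subunits for Ndufs7, -1.02 ± 0.40 (adjusted p = 0.856). For Sdhaf1 and Ndufaf4 it was -0.02 ± 0.53 and -0.15 ± 0.31. With array quality weights, 7 genes were called after LPS (Ndufab1, Ndufaf5, Ndufs7, Sdhaf2, Uqcrh, Cox7c and Atp5g1), while that fit called 9.12% of all probe sets. Leaving out the 3 arrays high in pancreas transcripts leaves knockout control 2 as the only knockout control. Cox7a2 read 929 in it, against 4120 and 3808 in knockout controls 1 and 3. A difference of Cox7a2 between control groups in that fit rests on this 1 array and cannot be assigned to genotype.

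Within each LPS group, most of the 87 transcripts were highest in the same array. Wild-type LPS 2 was the highest of its group for 64 of the 87 genes (73.6%, against 35.3% of all genes), and knockout LPS 2 for 68 (78.2%, against 39.3%). Both held for 60 genes (69%, against 22.4%). By kind, 62 and 65 of the 78 subunits were highest in these 2 arrays, and 2 and 2 of the 8 assembly factors. Wild-type LPS 1 was the lowest of its group for 58 (66.7%, against 47.8%). The same LPS 2 arrays were the highest of their groups in mean log2 level of liver markers (8.40 against 6.68 and 6.22, and 9.30 against 6.70 and 8.42) and of red cell precursor markers (7.58 against 6.20 and 6.61, and 7.38 against 6.42 and 6.81). Proliferation and neutrophil markers were also highest in them, and the part of these signals in the pattern was not tested. Without both of these LPS 2 arrays the counts of called genes were 2 in wild-type and 7 in knockout mice. Of all probe sets 3.24% and 9.15% were then called, against 6.59% and 12.7% with all arrays. Knockout control 2 was under 0.5 times the intensity of both other knockout controls for 8 genes (9.20%, against 2.28% of all genes). In it Ndufb10 read 308 against 843 and 1124, Ndufb6 297 against 806 and 844, Ndufc1 292 against 858 and 1013, and Atp5h 1456 against 3827 and 3013. The others were Ndufb5, Ndufc2, Ndufs5 and Cox7a2. In knockout LPS 2, where most subunits were high, Ndufaf7, Ndufs1, Uqcrc2 (362 against 1025 and 1222) and Cox7c were under 0.5 times both other arrays (4.60%, against 3.13% of all genes). The spread of log2 values among the mice of a group, as a median SD, was 0.23, 0.26, 0.25 and 0.31 for the 87 genes in wild-type control, wild-type LPS, knockout control and knockout LPS arrays. Over all genes it was 0.31, 0.25, 0.36 and 0.23. Knockout LPS arrays were thus more spread than those of other genes, and controls less.

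**Figure D4:**
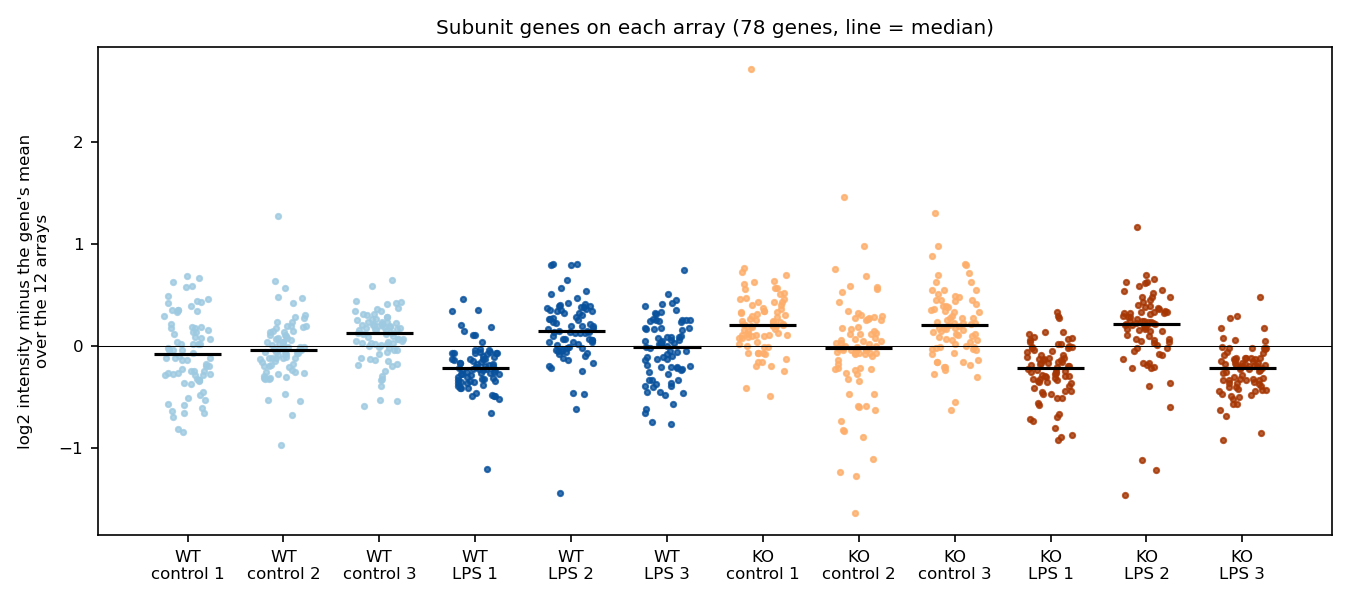
Log2 intensity of each of the 78 subunit genes minus that gene's mean over the 12 arrays (vertical axis), by array, with medians as lines. The medians of wild-type LPS 2 and knockout LPS 2 lie above those of the other LPS arrays, and knockout control 2 has a tail of low genes such as Cox7a2 (929).

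Genes of related mitochondrial pathways, taken from lists written by function, were also followed in the averaged response. Of 23 genes of the outer membrane and import machinery, 8 rose, 0 fell and the others did not pass, against 8.52% of all genes higher and 14.3% lower, and the list's median was 0.45. They included Tomm70a, a receptor for incoming proteins (1.29 ± 0.20, limma adjusted p = 0.00143), Timm8a1 and Timm10, chaperones of the space between the membranes (1.29 ± 0.27 and 1.07 ± 0.18), and Tomm40, the outer pore (1.13 ± 0.26). Tomm70a read 362, 350 and 212, then 599, 500 and 772 in wild-type mice, and 323, 209 and 312, then 938, 588 and 938 in knockout mice, without overlap. The other called genes were Hspa9, Timm23, Timm17a and Timm44, and those but Timm44 held without any 1 array. The calls of Hspa9, Tomm40 and Timm44 were lost without the 3 arrays high in pancreas transcripts, where knockout control 2 is the only knockout control left. Without both LPS 2 arrays those of Tomm40 and Timm44 were lost, with 6 genes of the list higher and 1 lower. Counts under 3 other array scalings were 9 or 10 higher and 0 lower. Within genotypes, 6 of the 23 were called higher in wild-type mice, against 3.93% of all genes, and 2 in knockout mice, against 5.54%. The list's medians were 0.57 and 0.18, and none of the 23 passed a test between genotypes.

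Of 23 other assembly factors, outside the naming rule, 2 were higher and 4 lower. These counts are near the shares of all genes, 8.52% higher and 14.3% lower. Surf1, which helps build complex IV, read 345, 430 and 516, then 225, 246 and 195 in wild-type mice, and 344, 366 and 640, then 68, 113 and 82 in knockout mice. No LPS array reached a control, and the averaged fall was -1.64 ± 0.19 (limma adjusted p = 0.000249). Bcs1l, which inserts the Rieske protein into complex III, and Cox20 fell by -0.68 ± 0.15 and -0.86 ± 0.19 in the averaged response. Within genotypes, Surf1 and Bcs1l passed in knockout mice only (-2.33 ± 0.28 and -1.25 ± 0.21), and Cox20 in wild-type mice only (-0.99 ± 0.26). Cox18 (1.05 ± 0.16) and Coa7 (1.34 ± 0.19), both needed for complex IV, rose. The averaged calls of these 5 genes held without any 1 array, and that of Higd2a (-0.85 ± 0.25) was lost without each of 9. The averaged calls of Bcs1l and Higd2a were lost without the 3 arrays high in pancreas transcripts, and also with arrays scaled to a common median.

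Called genes of the citric acid cycle and of coenzyme Q synthesis were all lower. Over all genes, 8.52% were called higher and 14.3% lower. In the cycle 0 of 22 genes were higher and 4 lower: Idh2 (-1.48 ± 0.24), Fh1, the fumarase (-1.44 ± 0.21), Idh3b (-0.70 ± 0.16) and the pyruvate dehydrogenase kinase Pdk2 (-0.55 ± 0.12). With 3 other array scalings 2 or 3 genes of the cycle were called higher. Idh2 read 216, 266 and 314, then 76, 139 and 112 in wild-type mice, and 211, 394 and 349, then 76, 149 and 83 in knockout mice, and every LPS array lay below every control. In coenzyme Q synthesis 0 of 8 were higher and 3 lower: Coq10a (-1.10 ± 0.19), Coq9 (-0.92 ± 0.20) and Coq8a (-0.87 ± 0.18). Without the 3 arrays high in pancreas transcripts the calls of Coq9 and Pdk2 were lost. That of Pdk2 was also lost with arrays scaled to a common median, and that of Idh3b without both LPS 2 arrays.

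Of 12 other proteins that feed or follow the chain, 2 rose and 3 fell, against 8.52% of all genes higher and 14.3% lower. Sqor, which passes electrons from sulfide to coenzyme Q, fell by -1.26 ± 0.15 (limma adjusted p = 0.000222), and Etfb and Etfdh, which do so for fatty acid oxidation, by -0.94 ± 0.14 and -1.18 ± 0.32. Gpd2, the mitochondrial glycerol phosphate dehydrogenase, rose by 0.95 ± 0.24 and cytochrome c, Cycs, by 0.57 ± 0.16. Of 18 regulators of mitochondrial biogenesis, 2 rose and 3 fell, against the same 8.52% and 14.3% of all genes. Gabpb1, a subunit of GABP, and the coactivator Pprc1 rose by 1.19 ± 0.21 and 1.03 ± 0.21, while the deacetylase Sirt3 and the DNA polymerase subunits Polg2 and Polg fell (-1.32 ± 0.15, -1.10 ± 0.16 and -0.93 ± 0.26). Nrf1 itself had an averaged difference of 0.00 ± 0.15 (limma adjusted p = 0.994). Calls of Etfdh, Cycs and Polg were lost without each of 6, 4 and 7 arrays, and those of the other genes named here held without any 1. Without the 3 arrays high in pancreas transcripts the calls of Gpd2, Cycs, Etfdh and Pprc1 were lost. Without both LPS 2 arrays those of Gpd2, Cycs, Etfdh and Polg were lost. Of the 12 proteins that feed or follow the chain, 0 were then called higher and 2 lower.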

How the data were processed

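Deposited values were intensities per probe set on a linear scale, whole numbers from 6 to 15228. The authors made them with RMA, per the submitters' processing notes and design text; the version and any rescaling are not given in the sources used here. Array medians ran from 47 to 63. Intensities were log2-transformed, and 22626 of 22690 probe sets (64 controls left out) were fitted with limma 3.58.1 in R 4.3.3: 4 group means, 8 residual and 2.722 prior degrees of freedom. The 6 contrasts were tested two-sided, with Benjamini-Hochberg adjustment over all probe sets and a threshold of 0.05. A value after ± is limma's standard error (3 mice per group). Intervals are 95% intervals from the fit. A gene was its brightest probe set naming that gene alone, leaving _x_at sets aside where there was another; 46 of the 87 genes had several. Platform annotation can be old. Levels are not compared between genes. Precision is set by signal over background and by the number of arrays.

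The genes, lists and comparisons were chosen with earlier results of these data known. Genes named are those called in any contrast, the largest rise and fall per complex, tissue isoforms and up to 4 called genes per list and direction; any other was named after its values were seen. Motifs were searched in RefSeq windows. Groups came from sample titles. The fit was tested on simulated data. Alternatives were 3 scalings, a floor of 20, a filter on dim probe sets, an intensity trend, array weights, other probe set choices, a fit on 1 probe set per gene, a replicate block, leaving out each array, and 3 sets of arrays left out, chosen after seeing the data. Beside the 6 pathway lists, 12 marker lists were used; in the averaged LPS response 0 genes were called in those for red cell precursors, liver, lung, brown fat and neutrophils, 1 each for pancreas, striated muscle and white fat, and 2 for proliferation.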

Additional observations from a re-analysis of the deposited data

How the results depend on the processing

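Of 29 results in which a gene passed a test, 4 passed under all 25 alternatives: Sdhaf1 in wild-type, knockout and averaged responses, and Ndufb3 averaged. Sign changes occurred for Ndufaf4 only, where the probe set of largest variance, a dimmer one, gave -0.74 in knockout mice and -0.27 averaged. Of 493 results that did not pass, 265 changed sign and 47 passed under some alternative. The wild-type count of 4 became 2 with median scaling, the most variable probe set, the replicate block or without the 2 high LPS arrays, and 10 with array weights. The knockout count of 11 became 3 with median scaling (median -0.05), 6 with an intensity trend and robust prior, 18 with array weights, 6 without the pancreas-high or the red-cell-high arrays, and 7 without the 2 high LPS arrays. The averaged count of 14 became 9 with median scaling and 7 without the pancreas-high or the red-cell-high arrays. The genotype count after LPS became 7 with array weights (median -0.27; interaction median -0.43), while calls among all 22626 probe sets went from 72 to 2063. Without the pancreas-high arrays knockout control 2 is the only knockout control left. That fit is therefore not used for the genotype difference in controls. The fall in counts with fewer arrays or another scaling has a cause that was not tested. Leaving out 1 array gave counts of 2 to 6 in wild-type, 4 to 10 in knockout and 5 to 19 in averaged responses, and 0 to 0 in genotype and interaction contrasts. Medians then ran from -0.12 to 0.05, -0.39 to -0.16 and -0.24 to -0.12 for the LPS responses, 0.09 to 0.22 and -0.22 to 0.03 for the genotype in controls and after LPS, and -0.38 to -0.10 for the interaction. Same-numbered arrays of different groups deviated together in some cases only: 6 of 18 correlations were over 0.1 (-0.584 to 0.629), the highest being that of the LPS 2 arrays of both genotypes. Replicate numbers were therefore not taken as pairs; with a replicate block the counts were 2, 8 and 10.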

Other observations

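Of the 8 probe sets left out because they name a second gene, some name subunits that no other probe set here represents. The probe set shared by Ndufs6, a subunit of the complex I electron entry arm, and its copy Ndufs6b read 638, 561 and 606 in the wild-type controls and 546, 942 and 745 after LPS. It read 777, 754 and 804 in knockout controls and 526, 1029 and 508 after LPS. The probe set shared by Ndufa11 and Ndufa11b read 754, 691 and 847, then 658, 950 and 785 in wild-type mice, and 850, 726 and 1237, then 693, 1097 and 627 in knockout mice. In both, LPS 2 was the highest array of its LPS group, as it was for most subunits above. The probe set naming Yjefn3 with Ndufa13 read 19 to 42 over the 12 arrays, and that naming Ndufb2 with Adck2 35 to 66.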
